A study of Homo sapiens with 16 samples.

Results

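SLC7A11, SLC3A2 and CTH, the genes for both subunits of the cystine carrier system xc- and for the last enzyme that makes cysteine inside the cell, were followed across 16 RNA libraries of HT-1080 cells. They were taken by symbol from the deposited table, and all 3 had values, out of 17552 genes with values. HT-1080 cells come from a human fibrosarcoma and are a common model of ferroptosis, the iron-dependent death of cells whose lipids are peroxidized. There were 8 groups with 2 libraries each, namely siDCAF8/Erastin and siDCAF8, oeWDR76/Erastin and oeWDR76, siDCAF8+siLSH/Erastin and siDCAF8+siLSH, and siNS/Erastin and siNS. Cells of the siDCAF8 groups received siRNA against DCAF8, a substrate receptor of CRL4 ubiquitin ligases. Cells of the oeWDR76 groups overexpressed WDR76, another WD40-repeat protein. Cells of the siDCAF8+siLSH groups received siRNAs against DCAF8 and against LSH, a chromatin remodeler encoded by HELLS. The siNS groups, which the deposited table names NC, served as the control here. Erastin was given at 10 µM for 24 h, and what the other cells received in its place is not stated. How many siRNAs were used for each target is not stated in the labels, and oeWDR76 was set against siNS, because an empty-vector control was not analysed here. The labels do not say whether the libraries of a group are separate cultures, so the p-values reflect the spread among these libraries, which may be technical.

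System xc- brings cystine into the cell in exchange for glutamate. SLC7A11 (also called xCT) is its transporting light chain, and SLC3A2 (the 4F2 heavy chain, CD98) carries this and several other light chains to the membrane. Cystine is reduced to cysteine, which limits the synthesis of glutathione, the cofactor of the lipid peroxidase GPX4, and erastin blocks this uptake. CTH, cystathionine gamma-lyase, cleaves cystathionine in the transsulfuration pathway and gives the cell a source of cysteine other than uptake. SLC7A11 is known as a target of the amino acid response factor ATF4 and of the oxidative stress factor NRF2, and SLC3A2 and CTH are also known as ATF4 targets.

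The genes lie apart in the genome. On GRCh38, the deposited table places SLC7A11 (gene 23657) on the minus strand of chromosome 4 at 138164094 to 138242349, with 1 transcript of 9648 bases. It places SLC3A2 (gene 6520) on the plus strand of chromosome 11 at 62856012 to 62889344, and CTH (gene 1491) on the plus strand of chromosome 1 at 70411218 to 70439851. The 3' part of SLC7A11 overlaps the noncoding gene SLC7A11-AS1 on the opposite strand (GENCODE v29, to position 138178177). Whether counting used strand is not stated, so reads from that overlap cannot be assigned to 1 of the 2 genes.

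To show the regulatory sequence of the members that have an entry, the 250 bases before their transcription starts are shown, from RefSeq on GRCh38.p14, plus strand, 5′ to 3′. The first window, chr11:62881449-62881698, lies before 1 of the 3 SLC3A2 starts in the RefSeq table, and the second, chr1:70411018-70411267, before the CTH start. Capitals mark the letters TGACNNNGC, the core of the antioxidant response element through which NRF2 acts.
SLC3A2: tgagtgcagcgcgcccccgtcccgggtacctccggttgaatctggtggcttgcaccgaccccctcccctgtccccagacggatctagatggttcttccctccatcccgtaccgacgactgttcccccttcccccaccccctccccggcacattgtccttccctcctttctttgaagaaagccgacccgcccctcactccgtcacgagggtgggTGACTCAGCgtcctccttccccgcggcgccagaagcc
CTH: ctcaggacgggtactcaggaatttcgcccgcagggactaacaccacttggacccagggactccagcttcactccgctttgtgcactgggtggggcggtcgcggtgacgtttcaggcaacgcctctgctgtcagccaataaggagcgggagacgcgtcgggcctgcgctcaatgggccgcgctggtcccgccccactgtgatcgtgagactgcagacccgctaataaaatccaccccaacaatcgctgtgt
The core stood once in the first window, as TGACTCAGC, beginning 37 bases before the start. It was not found in the CTH window or before the other 2 SLC3A2 starts. Among all 35116 windows of this length in the table, 10.9% held it on either strand. The letters TGATGNAA, the core of the amino acid response element bound by ATF4, were found in none of these 4 windows on either strand and in 3.14% of all windows. A match describes the letters and is no evidence of binding. SLC7A11 had no entry in the table.

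The targeted genes were checked first. DCAF8 was lower than in siNS by 1.64 and 1.71 on the log2 scale in siDCAF8 without and with erastin, and by 1.28 and 1.17 in siDCAF8+siLSH. WDR76 was 64.0-fold and 65.5-fold higher in oeWDR76. HELLS was lower by 0.68 and 1.09 on the log2 scale in siDCAF8+siLSH than in siDCAF8. Against siNS its difference in siDCAF8+siLSH was 0.01 without erastin (limma, adjusted p = 0.884) and -0.47 with it. In siDCAF8 itself HELLS was higher than in siNS, by 0.70 without and 0.62 with erastin. It was also higher in oeWDR76, by 1.24 and 1.40 as deposited. WDR76 was higher than in siNS in siDCAF8+siLSH too, by 1.04 and 0.57. In siDCAF8 it was higher by 0.55 without erastin, and its difference of 0.10 with erastin was not called. DCAF8 was called lower than in siNS in oeWDR76 as deposited, by log2 differences of -0.31 without and -0.23 with erastin. All 6 mesenchymal markers were present in every library, summing to 2418 to 4162 FPKM, from VIM at 1273 FPKM or more to ZEB1 at 8.51 to 22.6 FPKM. The 6 epithelial markers summed to 108 to 232 FPKM, nearly all of it KRT8 at 104 to 226 FPKM, while EPCAM, CDH1, KRT19 and ESRP1 reached at most 0.55 FPKM. Leukocyte markers summed to 1.81 to 3.78 FPKM and endothelial markers to 1.12 to 4.41 FPKM. The 4 oeWDR76 libraries stood apart from the other 12. Their levels, relative to each gene's mean over all libraries, rose by 0.19 to 0.23 log2 per 10% of GC content, against -0.16 to 0.03 in the others, and they summed to 495857 to 503867 FPKM, against 436290 to 455662. The GC content of the transcripts is 35.4% for SLC7A11, 43.3% for CTH and 57.4% for SLC3A2, so the levels of oeWDR76 libraries below are as deposited, and their differences from other groups are also given after removal of trends with GC content and length.

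SLC3A2 was by far the most abundant of the 3 transcripts. Over all libraries SLC3A2 ran from 54.9 to 176 FPKM (fragments per kilobase of transcript, scaled to library size), CTH from 3.84 to 21.4 FPKM and SLC7A11 from 1.66 to 15.4 FPKM. As deposited, the group means spanned 6.99-fold for SLC7A11, 4.74-fold for CTH and 3.02-fold for SLC3A2. The low end for SLC7A11 is oeWDR76/Erastin, whose place depends on the processing: against siNS/Erastin the log2 difference was -0.27 as deposited and 0.32 with GC and length trends removed.

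**Figure D1:**
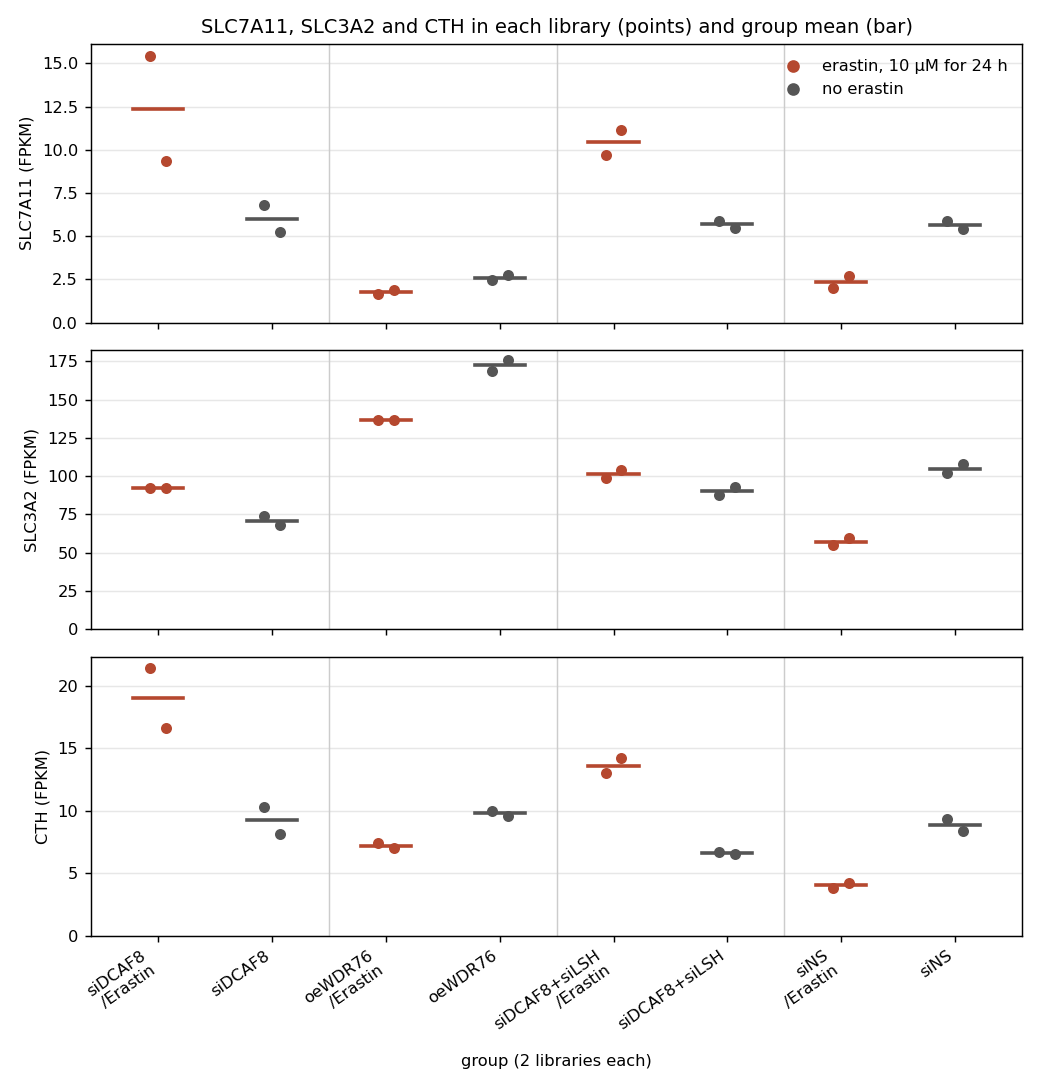
FPKM of SLC7A11, SLC3A2 and CTH (3 panels, linear axes from 0) in each of the 16 libraries, with points for libraries and bars for the means of 2. SLC7A11 and CTH are highest in siDCAF8/Erastin, at 12.4 and 19.0 FPKM on average, while SLC3A2 is highest in oeWDR76, at 172 FPKM.

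The order of SLC7A11 levels ran from oeWDR76/Erastin (1.66 and 1.88 FPKM) through siNS/Erastin (2.02 and 2.69) and oeWDR76 (2.45 and 2.76) to siNS (5.43 and 5.86), siDCAF8+siLSH (5.47 and 5.89) and siDCAF8 (5.22 and 6.78), and ended with siDCAF8+siLSH/Erastin (9.71 and 11.1) and siDCAF8/Erastin (9.32 and 15.4). As deposited, both oeWDR76/Erastin values lay below those of all other groups. The values of siNS/Erastin and oeWDR76 overlapped, as did those of siNS, siDCAF8+siLSH and siDCAF8, and those of both DCAF8-depleted erastin groups.

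CTH was lowest in siNS/Erastin (3.84 and 4.19 FPKM), followed by siDCAF8+siLSH (6.57 and 6.71) and oeWDR76/Erastin (7.03 and 7.38). The values of siNS (8.36 and 9.30), siDCAF8 (8.15 and 10.3) and oeWDR76 (9.61 and 9.97) formed the middle, where siDCAF8 overlapped each of the others. CTH was highest in siDCAF8+siLSH/Erastin (13.0 and 14.2) and siDCAF8/Erastin (16.6 and 21.4), which did not overlap. Like SLC7A11, CTH was thus highest in the DCAF8-depleted erastin groups.

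SLC3A2 had another order. It was lowest in siNS/Erastin (54.9 and 59.4 FPKM) and siDCAF8 (67.9 and 73.7), and it was similar in siDCAF8+siLSH (87.3 and 93.0) and siDCAF8/Erastin (92.1 and 92.3), whose values overlapped. The values of siDCAF8+siLSH/Erastin (98.7 and 104) and siNS (102 and 108) overlapped as well. The highest levels were in oeWDR76/Erastin (136 and 137) and oeWDR76 (169 and 176). Over the 8 group means of log2(FPKM + 1), Pearson's r was 0.77 between SLC7A11 and CTH, 0.33 between SLC3A2 and CTH and -0.22 between SLC7A11 and SLC3A2. These are descriptions over 8 points that share the scaling of each library. They use levels as deposited, so the GC trend of the oeWDR76 groups enters them. Against siNS without erastin, oeWDR76 differed by -0.88 for SLC7A11 and 0.71 for SLC3A2 as deposited. With GC and length trends removed the differences were -0.28 and 0.39. The r values without the oeWDR76 groups or with the trends removed were not computed.

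The abundance of SLC3A2 relative to SLC7A11 differed between groups. Within a library, the deposited ratio of SLC3A2 to SLC7A11 FPKM was 63.8 to 82.2 in the 4 oeWDR76 libraries, against 5.98 to 27.2 in the other 12. The gap was smaller with GC and length trends removed. In oeWDR76 against siNS without erastin, the log2 differences of SLC3A2 and SLC7A11 were 0.71 and -0.88 as deposited, and 0.39 and -0.28 with the trends removed. The ratio was 5.98 and 9.88 in siDCAF8/Erastin, against 10.9 and 13.0 in siDCAF8. In siDCAF8+siLSH/Erastin it was 10.2 and 9.31, against 14.8 and 17.0 in siDCAF8+siLSH. In siNS the ratio was higher with erastin, with 27.2 and 22.1 in siNS/Erastin, against 17.4 and 19.9 in siNS. The heavy chain is shared with other carriers, and no protein was measured. The deposited ratio of CTH to SLC7A11 was 3.48 to 4.45 in oeWDR76 libraries, against 1.14 to 1.90 in the other 12. With the trends removed, the log2 differences of CTH and SLC7A11 between oeWDR76 and siNS were 0.03 and -0.28 without erastin, and 0.55 and 0.32 with it; as deposited they were 0.14 and -0.88, and 0.71 and -0.27.

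**Figure D2:**
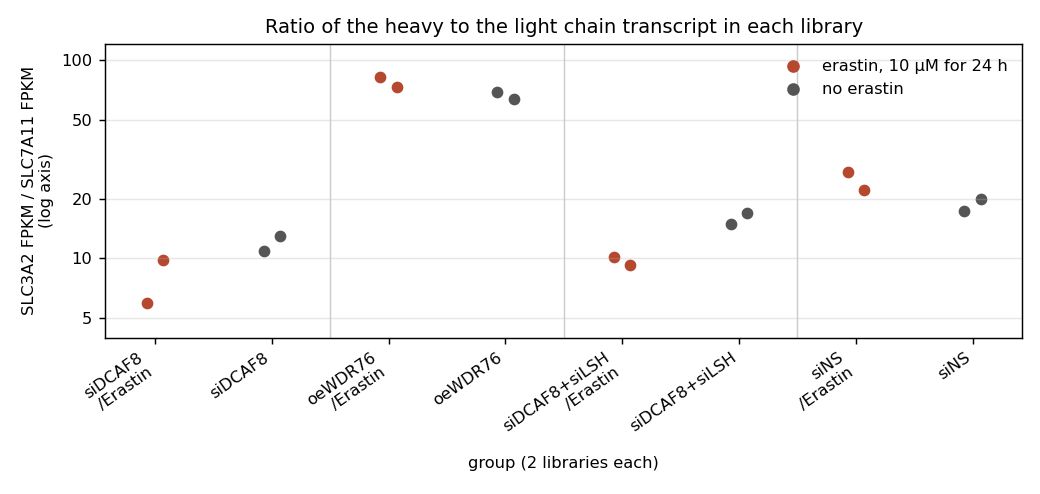
Ratio of SLC3A2 to SLC7A11 FPKM in each library, on a log axis, by group. As deposited, the 4 oeWDR76 libraries lie between 63.8 and 82.2, above the other 12, and both DCAF8-depleted erastin groups lie at 5.98 to 10.2.

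The first comparison asks how erastin, which blocks system xc-, moved the transcripts of the carrier and of CTH in control cells. All 3 fell in siNS cells, by 1.82-fold to 1.99-fold, and 22.4% of the 11260 tested genes were called lower in the same comparison. Of all calls here, 40.4% were higher, and 50.6% with median-ratio scaling. In bulk RNA, fewer cells expressing a gene and less RNA per cell cannot be told apart. SLC7A11 fell to 2.02 and 2.69 FPKM in siNS/Erastin, against 5.43 and 5.86 FPKM in siNS, which is 1.99-fold (log2 -0.99, SE 0.16, adjusted p = 0.000166). All fold values were computed after adding 1 FPKM, which understates changes at low levels: with 0.1 FPKM added the log2 difference of SLC7A11 was -1.24.

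SLC3A2 fell to 54.9 and 59.4 FPKM in siNS/Erastin, against 102 and 108 FPKM in siNS, 1.82-fold (log2 -0.86, SE 0.06, adjusted p = 2.95e-08). It ranked 18 of 11260 genes by p. CTH fell to 3.84 and 4.19 FPKM in siNS/Erastin, against 8.36 and 9.30 FPKM in siNS, 1.96-fold (log2 -0.97, SE 0.11, adjusted p = 4.09e-06). For each of the 3 genes the values of the erastin libraries lay below those of the untreated libraries. The share of all tested genes separated in this way was not computed, so with 2 libraries in each group this is only a description.

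In DCAF8-depleted cells erastin was followed by a change in the opposite direction. All 3 genes rose in siDCAF8/Erastin against siDCAF8, where 18.3% of tested genes were called higher. SLC7A11 rose to 9.32 and 15.4 FPKM in siDCAF8/Erastin, against 5.22 and 6.78 FPKM in siDCAF8, 1.87-fold (log2 0.90, SE 0.16, adjusted p = 0.000356). The erastin libraries were both higher but spread widely, and without siDCAF8/Erastin replicate 1 the log2 difference was 0.57 and still called.

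CTH rose to 16.6 and 21.4 FPKM in siDCAF8/Erastin, against 8.15 and 10.3 FPKM in siDCAF8, 1.96-fold (log2 0.97, SE 0.11, adjusted p = 4.97e-06). It ranked 19 and SLC7A11 ranked 24 among all 11260 genes by the size of the rise. SLC3A2 rose less, to 92.1 and 92.3 FPKM in siDCAF8/Erastin, against 67.9 and 73.7 FPKM in siDCAF8, 1.30-fold (log2 0.38, SE 0.06, adjusted p = 0.000112). After removal of trends with GC content and length the log2 differences were 0.67 for SLC7A11, 0.91 for CTH and 0.52 for SLC3A2, all called.

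Cells given siRNAs against both DCAF8 and LSH showed rises of SLC7A11 and CTH and none called for SLC3A2, where 10.6% of tested genes were called higher. SLC7A11 rose to 9.71 and 11.1 FPKM in siDCAF8+siLSH/Erastin, against 5.47 and 5.89 FPKM in siDCAF8+siLSH, 1.71-fold (log2 0.77, SE 0.16, adjusted p = 0.00288). CTH rose to 13.0 and 14.2 FPKM in siDCAF8+siLSH/Erastin, against 6.57 and 6.71 FPKM in siDCAF8+siLSH, 1.91-fold (log2 0.93, SE 0.11, adjusted p = 1.70e-05). SLC3A2 had 98.7 and 104 FPKM in siDCAF8+siLSH/Erastin, against 87.3 and 93.0 FPKM in siDCAF8+siLSH. The difference of 0.17 was not called (limma, adjusted p = 0.0549), and it was called under 3 of the alternative settings.

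In WDR76-overexpressing cells erastin gave smaller differences, and 0.977% of tested genes were called lower. SLC3A2 fell to 136 and 137 FPKM in oeWDR76/Erastin, against 169 and 176 FPKM in oeWDR76, 1.26-fold (log2 -0.33, SE 0.06, adjusted p = 0.00797). That call was lost without oeWDR76 replicate 2 (adjusted p = 0.129), without oeWDR76/Erastin replicate 1 (adjusted p = 0.0914) or without oeWDR76/Erastin replicate 2 (adjusted p = 0.0673). SLC7A11 had 1.66 and 1.88 FPKM in oeWDR76/Erastin, against 2.45 and 2.76 FPKM in oeWDR76 (log2 -0.38, adjusted p = 0.301). CTH had 7.38 and 7.03 FPKM in oeWDR76/Erastin, against 9.97 and 9.61 FPKM in oeWDR76 (log2 -0.40, adjusted p = 0.0851). Neither was called. Both genes had lower values in each oeWDR76/Erastin library than in the oeWDR76 libraries, but how many of all tested genes separate like this was not computed. With GC and length trends removed the differences were -0.46 for SLC7A11, -0.30 for SLC3A2 and -0.42 for CTH.

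**Figure D3:**
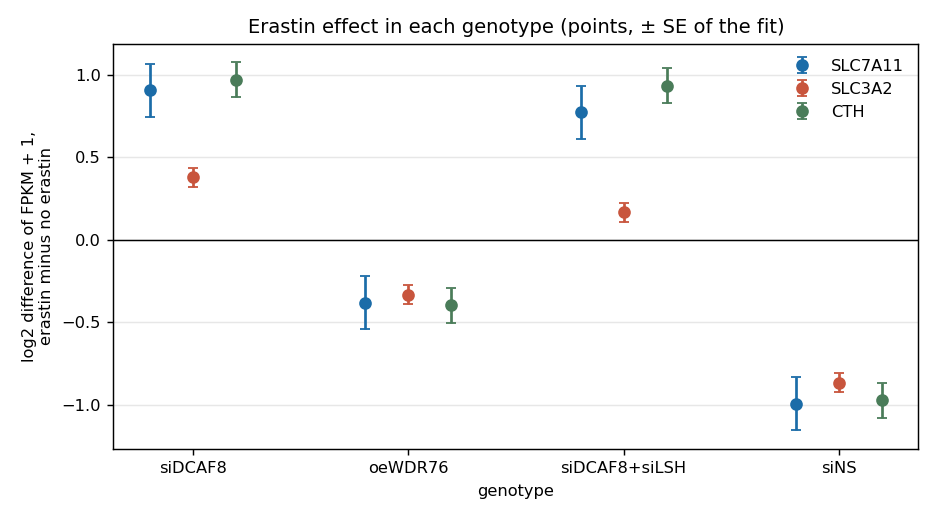
Log2 difference of FPKM + 1 between erastin and untreated cells for SLC7A11, SLC3A2 and CTH in 4 genotypes, with error bars of ± 1 SE from the fit. The points are above 0 in both DCAF8-depleted genotypes, where SLC3A2 has the smallest difference, and below 0 in oeWDR76 and in siNS.

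The difference of erastin responses was tested directly. Between siDCAF8 and siNS all 3 responses differed, with the higher response in siDCAF8, and 11% of tested genes were called in that direction. SLC3A2 had the lowest p of all 11260 genes, with a difference of 1.24 on the log2 scale (SE 0.08, adjusted p = 4.73e-07). CTH differed by 1.94 and SLC7A11 by 1.90, the fifth and the sixth largest positive differences in the table (adjusted p = 1.20e-06 and 5.44e-05). The order of the members by size of difference and by p was thus not the same.

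Between siDCAF8+siLSH and siNS the responses also differed for all 3, where 15.6% of tested genes were called higher. The difference was 1.76 for SLC7A11 (SE 0.23, adjusted p = 8.25e-05), 1.03 for SLC3A2 (SE 0.08, adjusted p = 6.92e-07) and 1.90 for CTH (SE 0.15, adjusted p = 5.74e-07). This test uses the same siNS libraries as the one before, so the pair is not independent. With median-ratio scaling the share of higher calls was 49.4% in place of 63.2%. Between oeWDR76 and siNS, SLC3A2 and CTH fell less in oeWDR76, by differences of 0.53 (SE 0.08, adjusted p = 0.000784) and 0.57 (SE 0.15, adjusted p = 0.0180), and 9.04% of tested genes were called higher (63.9% of calls, and 50.2% with median-ratio scaling). The SLC7A11 difference of 0.61 was not called (adjusted p = 0.0821). The CTH call was lost when low genes were not filtered out (adjusted p = 0.0661) and without siNS replicate 1, siNS/Erastin replicate 1, oeWDR76 replicate 2 or oeWDR76/Erastin replicate 1 (adjusted p = 0.0739, 0.0658, 0.0608 and 0.0593).

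Whether the LSH siRNA altered the response of DCAF8-depleted cells was tested as siDCAF8+siLSH against siDCAF8. With limma, 0 of the 3 genes were called, 1 of 3 had an unadjusted p under 0.05, and 23.5% of all tested genes were called in either direction (60.6% of them higher, and 48.3% with median-ratio scaling). The difference was -0.13 for SLC7A11 (95% interval -0.61 to 0.35), -0.04 for CTH (-0.35 to 0.28) and -0.21 for SLC3A2 (-0.39 to -0.04, adjusted p = 0.0695). These intervals leave room for differences in either direction for SLC7A11 and CTH. SLC3A2 was called lower with median-ratio scaling (-0.25, adjusted p = 0.0487) and after removal of GC and length trends (-0.42, adjusted p = 0.0185), a setting in which 267 of 11086 tested genes were called. DCAF8 was also less depleted in siDCAF8+siLSH than in siDCAF8, with and without erastin, so LSH is not isolated here.

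Without erastin, DCAF8 depletion was accompanied by a lower SLC3A2 level, and no difference was called for the other members. SLC3A2 had 67.9 and 73.7 FPKM in siDCAF8, against 102 and 108 FPKM in siNS, 1.47-fold lower (log2 -0.56, SE 0.06, adjusted p = 4.52e-07), where 29.9% of tested genes were called lower. SLC7A11 differed by 0.07 (95% interval -0.27 to 0.41) and CTH by 0.05 (-0.17 to 0.27), and both overlapped siNS.

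In siDCAF8+siLSH without erastin, SLC3A2 (log2 -0.21, adjusted p = 0.00379) and CTH (log2 -0.36, adjusted p = 0.00627) were below siNS, where 30.9% of tested genes were called lower. Leaving out siNS replicate 2 ended the SLC3A2 call (adjusted p = 0.0505), and the difference was -0.14 after removal of GC and length trends. Leaving out siNS replicate 1 ended the CTH call (adjusted p = 0.0652). SLC7A11 differed by 0.01, with a 95% interval of -0.33 to 0.35.

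Against siDCAF8, siDCAF8+siLSH cells had more SLC3A2 (log2 0.35, adjusted p = 0.000154) and less CTH (log2 -0.41, adjusted p = 0.00428), with 26.4% of all tested genes higher and 21.7% lower. The CTH call was lost without siDCAF8 replicate 1, where the difference was -0.26 (adjusted p = 0.0947). SLC7A11 overlapped between these groups. DCAF8 itself was less depleted in siDCAF8+siLSH than in siDCAF8 (log2 0.37, adjusted p = 0.00156), so this comparison does not isolate LSH.

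With WDR76 overexpression and no erastin, the transcripts of the carrier's subunits moved in opposite directions. SLC3A2 had 169 and 176 FPKM in oeWDR76, against 102 and 108 FPKM in siNS, 1.64-fold higher (log2 0.71, SE 0.06, adjusted p = 9.66e-09), where 41.6% of tested genes were called higher. SLC7A11 had 2.45 and 2.76 FPKM in oeWDR76, against 5.43 and 5.86 FPKM in siNS, 1.84-fold lower (log2 -0.88, SE 0.16, adjusted p = 9.75e-05), where 32% were called lower. The low-GC member was the lower and the high-GC member the higher, which is the direction of the GC trend in these libraries.

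After removal of trends with GC content and length, SLC3A2 was still called higher, at 0.39 (adjusted p = 1.34e-05), and SLC7A11 was no longer called, at -0.28 (adjusted p = 0.163). Quantile normalization gave 0.45 for SLC3A2. CTH, whose GC content lies between them, differed by 0.14 as deposited (adjusted p = 0.255) and by 0.03 with the trends removed. WDR76 overexpression and whatever else sets these 4 libraries apart cannot be told apart.

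Under erastin all 3 genes were higher in both DCAF8-depleted groups than in siNS. In siDCAF8/Erastin against siNS/Erastin, where 34.8% of tested genes were called higher, SLC7A11 was 3.90-fold higher (log2 1.96, adjusted p = 2.06e-08), CTH 3.97-fold (log2 1.99, adjusted p = 1.88e-10) and SLC3A2 1.60-fold (log2 0.68, adjusted p = 3.51e-08). CTH and SLC7A11 stood at the sixth and the eighth place by size among all genes. In siDCAF8+siLSH/Erastin against siNS/Erastin, where 39.3% were called higher, SLC7A11 was 3.42-fold higher (adjusted p = 6.87e-08), CTH 2.91-fold (adjusted p = 3.02e-09) and SLC3A2 1.76-fold (adjusted p = 4.65e-09). In that comparison 59.5% of calls were higher, and 49.1% with median-ratio scaling. None of these erastin groups overlapped siNS/Erastin for any of the 3 genes. The share of all tested genes without overlap was not computed, so with 2 libraries in each group this is only a description.

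Set directly against siDCAF8/Erastin, siDCAF8+siLSH/Erastin had less CTH, at 13.0 and 14.2 against 16.6 and 21.4 FPKM (log2 -0.45, adjusted p = 0.00222), where 19.3% of tested genes were called lower (61.1% of calls were higher, and 48.5% with median-ratio scaling). That call was lost without siDCAF8/Erastin replicate 1 (-0.27, adjusted p = 0.0549). For SLC7A11 the difference of -0.19 was not called (adjusted p = 0.335), and its direction turned without siDCAF8/Erastin replicate 1 (0.14), while it was called without siDCAF8/Erastin replicate 2 (-0.53, adjusted p = 0.00704). The SLC3A2 difference of 0.13 was not called (adjusted p = 0.0681). DCAF8 was again less depleted in siDCAF8+siLSH/Erastin (log2 0.54, adjusted p = 4.54e-05), so this comparison does not isolate LSH either.

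In oeWDR76/Erastin against siNS/Erastin SLC3A2 was 2.37-fold higher (log2 1.24, SE 0.06, adjusted p = 9.62e-12) and CTH 1.64-fold (log2 0.71, adjusted p = 1.07e-05), where 45.2% of tested genes were called higher. With GC and length trends removed these differences were 0.87 and 0.55, both called. SLC7A11 differed by -0.27 as deposited (adjusted p = 0.135) and by 0.32 with the trends removed (adjusted p = 0.106), so its direction here depends on the processing. The median of all tested genes in this comparison was 0.11 as deposited and 0.01 with median-ratio scaling, and 59.3% of calls were higher as deposited, against 48.8% with the trends removed.

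**Figure D4:**
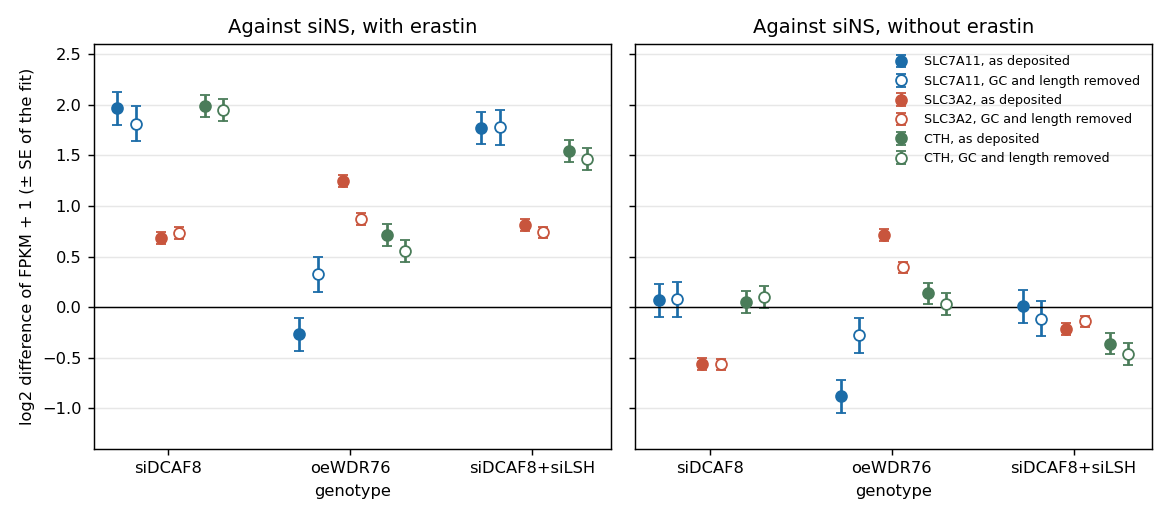
Log2 difference of FPKM + 1 against siNS for the 3 genes in siDCAF8, oeWDR76 and siDCAF8+siLSH, with erastin (left) and without (right), ± 1 SE from the fit. Filled points use FPKM as deposited and open points values with GC and length trends removed, which lie far apart for SLC7A11 in oeWDR76, at -0.27 and 0.32 with erastin and at -0.88 and -0.28 without.

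Other genes of cysteine supply were described from lists chosen by function. SLC7A5, the large neutral amino acid carrier that also pairs with SLC3A2, fell with erastin in siNS (log2 -1.25; 44.0 ± 0.877 FPKM in siNS/Erastin and 106 ± 5.46 FPKM in siNS, SD, n = 2 each; adjusted p = 2.21e-07) and in oeWDR76 (log2 -0.54, adjusted p = 0.0127). It was not called in siDCAF8 (-0.05, adjusted p = 0.701) or siDCAF8+siLSH (0.15, adjusted p = 0.324). Its response in siDCAF8 was higher than in siNS by 1.20 (adjusted p = 5.68e-05). Of the 5 partners of SLC3A2 other than SLC7A11, 3 passed the filter of a mean of 1 FPKM. In siNS with erastin 1 of these rose and 1 fell, where 15.1% of all tested genes were called higher and 22.4% lower, with a median log2 difference of -0.23, against -0.03 over all tested genes.

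The tested carriers of cystine or cysteine other than system xc- fell with erastin in control cells. SLC1A4, a carrier of alanine, serine and cysteine, stood at 3.31 ± 0.0424 FPKM in siNS/Erastin and 11.8 ± 0.149 FPKM in siNS (SD, n = 2 each; log2 -1.57, adjusted p = 2.36e-06). SLC1A5, a glutamine carrier of the same family, fell by 0.73 (adjusted p = 1.08e-06). In siDCAF8, SLC1A4 was not called (log2 0.19, adjusted p = 0.368). In siDCAF8+siLSH both rose, by 0.52 and 0.29 (adjusted p = 0.0303 and 0.00734). Of the 8 carriers of this list 4 passed the filter. Of these, 4 fell in siNS (22.4% of all tested genes were called lower), 2 fell in oeWDR76 (0.977%) and 1 fell in siDCAF8 (22.5%). In siDCAF8+siLSH 2 rose, where 10.6% of all tested genes were called higher. The gene that fell in siDCAF8 was MFSD12, the lysosomal cysteine importer. The list's median was -0.53 in siNS, against -0.03 over all tested genes.

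In the methionine cycle and transsulfuration list, 11 of 13 genes were tested. CBS, cystathionine beta-synthase, which makes the substrate of CTH, rose with erastin in siDCAF8, to 21.8 ± 4.25 FPKM in siDCAF8/Erastin, against 11.8 ± 0.955 FPKM in siDCAF8 (SD, n = 2 each; log2 0.82, adjusted p = 2.07e-05), and also in siDCAF8+siLSH (log2 0.84, adjusted p = 4.07e-05). In oeWDR76 it was not called (log2 -0.38, adjusted p = 0.0888). In siNS, CBS averaged 13.7 FPKM with and 13.6 FPKM without erastin. Its response in siDCAF8 was higher than in siNS by 0.81 (adjusted p = 0.00136). MAT2A, which makes S-adenosylmethionine, fell by 0.56 in siNS (adjusted p = 0.000262). Over all tested genes, 18.3% were called higher and 22.5% lower in siDCAF8, 10.6% and 9.54% in siDCAF8+siLSH, and 15.1% and 22.4% in siNS. Against these shares, the 11 genes of the list had 3 rises and 0 falls in siDCAF8, 2 rises and 0 falls in siDCAF8+siLSH, 2 of each in siNS, and none in oeWDR76 with limma, where 1 of 11 had an unadjusted p under 0.05. Its medians in these genotypes were 0.11, 0.12, 0.04 and -0.02.

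Among genes that reduce cystine and other disulfides, TXNRD1, the cytosolic thioredoxin reductase and a known NRF2 target, rose with erastin in siDCAF8 by 1.09, in siDCAF8+siLSH by 1.02 and in siNS by 0.99 (adjusted p = 4.00e-07, 2.16e-06 and 9.51e-07). In oeWDR76 it was not called (log2 0.22, adjusted p = 0.285). All 7 genes of this list were tested. Beside the shares of all genes given above, 2 rose and 1 fell in siDCAF8, 1 rose and 1 fell in siDCAF8+siLSH, and 4 rose and 1 fell in siNS. With limma 0 were called in oeWDR76, where 3 of 7 had an unadjusted p under 0.05. GCLM, a subunit of the enzyme that joins cysteine to glutamate, likewise rose in each of these genotypes, by 0.82, 1.11 and 1.27, and was not called in oeWDR76 (log2 0.34, adjusted p = 0.0909). Among the 15 tested genes of glutathione and cysteine use, 4 rose and 1 fell in siDCAF8 (18.3% and 22.5% of all tested genes). In oeWDR76 0 rose and 1 fell (0.471% and 0.977%), and in siDCAF8+siLSH 6 rose and 2 fell (10.6% and 9.54%). In siNS 3 rose and 5 fell (15.1% and 22.4%). Some of these counts were near the shares of all genes. CHAC1, which degrades glutathione and is a known ATF4 target, fell to 4.56 ± 1.20 FPKM in siNS/Erastin, against 35.8 ± 2.86 FPKM in siNS (SD, n = 2 each). The log2 difference was -2.74 with limma (adjusted p = 3.75e-09), and CHAC1 also fell by 1.04 in oeWDR76 (adjusted p = 0.00153). Without erastin it was already low in DCAF8-depleted cells, at 6.7 FPKM in siDCAF8 and 3.4 FPKM in siDCAF8+siLSH. With erastin it averaged 5.4 FPKM in siDCAF8/Erastin and 4.8 FPKM in siDCAF8+siLSH/Erastin.

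Among 16 regulators linked to SLC7A11, all of them tested, some counts were near the shares of all genes. There were 5 rises and 4 falls in siDCAF8 (18.3% and 22.5% of all tested genes), 0 and 3 in oeWDR76 (0.471% and 0.977%), 5 and 0 in siDCAF8+siLSH (10.6% and 9.54%), and 5 and 3 in siNS (15.1% and 22.4%). TRIB3, a pseudokinase that ATF4 induces, fell with erastin in siNS (log2 -1.42, adjusted p = 2.11e-08) and in oeWDR76 (log2 -0.47, adjusted p = 0.0162). In siDCAF8+siLSH it rose (log2 0.38, adjusted p = 0.00737), and in siDCAF8 it was not called (log2 -0.02, adjusted p = 0.901). DDIT3, the factor CHOP, rose in siDCAF8 by 0.66 and in siDCAF8+siLSH by 0.59, and fell by 0.38 in oeWDR76 and 0.36 in siNS. Without erastin, DDIT3 averaged 35.7 FPKM in siDCAF8, 12.6 FPKM in siDCAF8+siLSH, 107 FPKM in oeWDR76 and 66.6 FPKM in siNS. ATF4 RNA itself rose with limma in siDCAF8+siLSH (log2 0.44, adjusted p = 0.000145) and fell in oeWDR76 (log2 -0.27, adjusted p = 0.0410). That rise was from 284.6 FPKM in siDCAF8+siLSH to 387.6 FPKM in siDCAF8+siLSH/Erastin. In siDCAF8, ATF4 averaged 461.7 FPKM with and 414.9 FPKM without erastin, and in siNS 365.6 FPKM with and 408.2 FPKM without it. NFE2L2, which encodes NRF2, was called in none of the 4 erastin comparisons with limma (lowest adjusted p = 0.167).

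**Figure D5:**
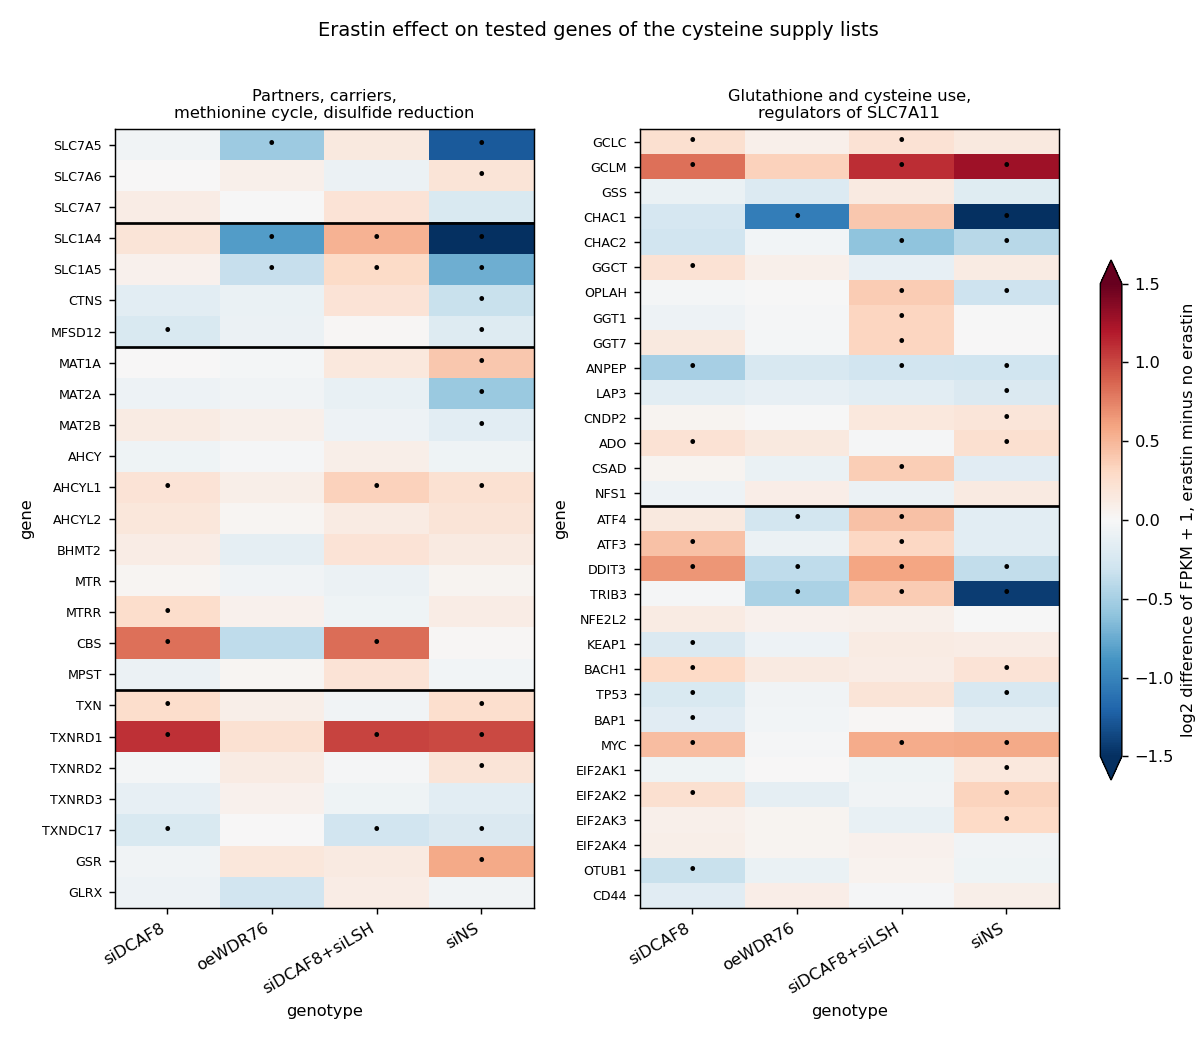
Log2 difference of FPKM + 1 with erastin (colour, limited to ±1.5) for every tested gene of 6 lists (rows, parted by black lines) in 4 genotypes (columns), with a dot where the adjusted p was under 0.05. TXNRD1 and GCLM are red in siDCAF8, siDCAF8+siLSH and siNS, while SLC7A5 and SLC1A4 are blue in oeWDR76 and siNS.

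The genes whose 8 group means were most like those of each member were named by Pearson's r, as a description. The means are as deposited, so the GC trend of the oeWDR76 groups enters the likeness, which was not computed with the trend removed. For SLC7A11 these were PNPLA4 (r = 0.99), HLCS (0.98), AP1AR (0.98), SNX18 (0.97) and FUT8 (0.97). For CTH they were TUBE1 (0.97), SARS, the cytosolic seryl-tRNA synthetase (0.96), KIAA1143 (0.94), NSRP1 (0.93) and FBXL2 (0.93). For SLC3A2 they were ZNF311 (0.98), NUDT6 (0.97), OCLN (0.96), ZNF155 (0.96) and NUTM2A (0.95). Each gene named for SLC3A2 had its highest means in oeWDR76 and oeWDR76/Erastin, as SLC3A2 did. Over the 16 libraries these r values were lower, down to 0.74 for OCLN and 0.76 for FBXL2. ZNF311, OCLN and NUTM2A averaged 1.28, 1.30 and 1.14 FPKM, near the filter of 1 FPKM. No member was on the list of another member.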

How the data were processed

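The authors deposited FPKM values with 2 decimals. The submitters' processing notes name StringTie and GRCh38; aligner, annotation and version were not given in the sources used here. Per the labels' protocols, Trizol RNA was amplified by Smart-seq v4 and prepared for BGISEQ500 sequencing. Of 24107 entries, 17552 have values. The table holds no counts, so depth is unknown and no counting interval is given; Pearson's r between the 2 libraries of a group was 0.996 to 0.997. Log2(FPKM + 1) was fitted for the 11260 genes averaging 1 FPKM or more, as 8 group means over all 16 libraries, with limma 3.58.1 in R 4.3.3 (eBayes with a trend). The 16 comparisons were adjusted by Benjamini-Hochberg over all tested genes, two-sided, and called at 0.05. Folds are on the FPKM + 1 scale. The fit was tested on simulated data. Transcript GC content, from GENCODE v29, was known for 11086 tested genes. Python 3.11.15 prepared tables. The members and lists were chosen with earlier results of these data known. Named genes were the members, the 3 targeted genes, up to 4 called genes of a list with the lowest p, and the 5 most alike per member. CBS, SLC7A5, SLC1A4, TXNRD1, GCLM and TRIB3 are also given where they were not called. NFE2L2 and the levels of ATF4 were added after their values were seen. The alternatives are in the closing section.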

Additional observations from a re-analysis of the deposited data

Results flagged for a closer look

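These erastin responses differed between genotypes by a test of the difference itself. In siDCAF8 minus siNS the difference on the log2 scale was 1.90 for SLC7A11, 1.24 for SLC3A2 and 1.94 for CTH. In siDCAF8+siLSH minus siNS it was 1.76 for SLC7A11, 1.03 for SLC3A2 and 1.90 for CTH. In oeWDR76 minus siNS it was 0.53 for SLC3A2 and 0.57 for CTH. These comparisons share the siNS libraries. In siDCAF8 and siDCAF8+siLSH the sign of the fitted erastin effect was opposite to that in siNS for all 3 genes, and in oeWDR76 it was the same as in siNS.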

How the results depend on the processing

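Of 48 log2 differences of the 3 genes, 33 were called, and 26 of those kept their direction and call under every alternative run; no called difference turned its direction. The cause of the changes was not tested. With GC and length trends removed, SLC7A11 was -0.28 in oeWDR76 against siNS without erastin, no longer called, and 0.32 with erastin, the opposite direction; in siDCAF8+siLSH against siNS without erastin it was -0.11, and -0.025 with median-ratio scaling. For the response of siDCAF8+siLSH minus siDCAF8, removal of these trends gave 0.16 for SLC7A11, 0.075 for CTH and -0.42 for SLC3A2, and median-ratio scaling gave -0.25 for SLC3A2. The erastin effect on SLC3A2 in siDCAF8+siLSH was called at a mean of at least 5 FPKM (0.17), with quantile normalization (0.21) and with the replicate block (0.17, adjusted p = 0.0469). With only the groups compared, calls were gained for CTH with erastin in oeWDR76 (-0.40, adjusted p = 0.0177), for SLC7A11 in the oeWDR76 minus siNS response (0.61, adjusted p = 0.0158) and for SLC7A11 in oeWDR76 against siNS with erastin (-0.27, adjusted p = 0.0445). With no filter, CTH in the oeWDR76 minus siNS response was 0.57 and not called.

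With 1 library left out at a time, the lone library of a group is assumed to vary like the others. SLC3A2 with erastin in oeWDR76 ran from -0.36 to -0.30, and the CTH response of oeWDR76 minus siNS from 0.51 to 0.64. The responses of siDCAF8+siLSH minus siDCAF8 ran from -0.47 to 0.20 for SLC7A11, from -0.27 to -0.15 for SLC3A2 and from -0.21 to 0.14 for CTH. Without erastin, siDCAF8 against siNS ran from -0.095 to 0.23 for SLC7A11 and from -0.10 to 0.20 for CTH. Without erastin, siDCAF8+siLSH against siNS ran from -0.039 to 0.054 for SLC7A11, from -0.26 to -0.17 for SLC3A2 and from -0.43 to -0.29 for CTH. Against siDCAF8 without erastin, siDCAF8+siLSH ran from -0.22 to 0.10 for SLC7A11 and from -0.56 to -0.26 for CTH, and with erastin from -0.53 to 0.14 for SLC7A11 and from -0.62 to -0.27 for CTH.

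The labels do not say that replicate numbers pair libraries across groups, and the deviations of same-numbered libraries correlated by -0.21 to 0.39 over 28 pairs of groups. The replicate block changed no other call of the 3 genes. A fit with no oeWDR76 library, chosen after seeing the data, changed none of 36 differences. Counts of all genes called moved by over 1.5 times in 8 comparisons. Those of erastin were 4600 in siDCAF8 (lowest 3021), 163 in oeWDR76 (27 to 270), 2270 in siDCAF8+siLSH (lowest 1247) and 4223 in siNS (lowest 2796). Those of response differences were 2341 for siDCAF8 (lowest 1315), 1593 for oeWDR76 (lowest 906) and 2790 for siDCAF8+siLSH (lowest 1761), each minus siNS, and 2642 for siDCAF8+siLSH minus siDCAF8 (267 with GC and length trends removed). Depth is unknown, so what it limits cannot be stated.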

Other observations

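Of the genes in the lists above, 13 had a mean under 1 FPKM and were not tested. SLC7A9 and SLC3A1, the subunits of the cystine carrier of kidney and gut, reached at most 0.07 and 0.18 FPKM in any library. SLC1A1, a neuronal carrier of glutamate and cysteine, reached 0.06 FPKM. CDO1, the dioxygenase that degrades cysteine, reached 0.05 FPKM, and BHMT, the betaine-dependent methyltransferase of homocysteine, reached 0.02 FPKM. Without counts, a level near 0 cannot be set against a detection limit.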
